A study of Arabidopsis thaliana with 24 samples.

Results

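The 38 genes described here belong to the SAUR family (small auxin-up RNAs) of Arabidopsis thaliana, 80 features of which stand in a deposited table of 38194 features. They were taken as listed family members, and they include the tandem clusters SAUR19-24 on chromosome 5 and SAUR61-68 on chromosome 1. By position they fall into 7 groups. SAUR19-24 holds 6 genes, SAUR61-68 holds 8, SAUR14-16 on chromosome 4 holds 3 and SAUR26-29 on chromosome 3 holds 4. A further stretch of chromosome 4 holds SAUR50, SAUR1, SAUR3, SAUR4 and SAUR5, the neighbours SAUR6 and SAUR12 lie on chromosome 2, and 10 members are dispersed. Here AT1G29490 is called SAUR68 and AT1G29510 is called SAUR67, a name under which published lists differ.

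RNA came from detached leaves of Columbia-0 seedlings aged 10 d and kept in continuous light, with 18 to 20 leaves pooled per sample. In the stimulus group, leaves floated for 8 h in buffer with 20 µM bikinin, 2.5 µg/mL of the synthetic auxin 2,4-D and 0.5 µg/mL of the cytokinin kinetin. Bikinin inhibits the GSK3-like kinases that restrain brassinosteroid signalling. In the mock group, leaves floated as long without these 3 agents, and both groups had 5.0% glucose and 0.2% DMSO. Cordycepin at 1 mM, an adenosine analogue that ends RNA chains, was then given, and leaves were frozen at 0, 15, 60 and 240 min. The stimulus and mock groups had 3 libraries at each of the 4 times, numbered 2, 3 and 4, so that 24 libraries were compared. No sample had 1 agent alone, so the auxin, brassinosteroid and cytokinin parts of the response cannot be told apart.

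SAUR genes were first found as transcripts that appear within minutes of auxin treatment. Their small proteins bind and inhibit PP2C-D phosphatases, which otherwise remove the activating phosphate from plasma membrane proton pumps, and active pumps acidify and loosen the cell wall so that the cell expands. SAUR RNAs are known as short-lived, and a downstream element in the 3′ untranslated region (UTR) of soybean and Arabidopsis SAUR RNAs, with the block ATAGAT, is known to shorten their life.

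The 3′ UTR sequences were read with RefSeq's annotation of TAIR10.1, and their part in the decline after cordycepin was not tested. All 6 genes of SAUR19-24 carried TGTANATA, the letters bound by Pumilio RNA-binding proteins, within a short stretch after the stop codon. These 30-base windows are shown because the stretch is shared by the whole cluster, with TGTANATA in capitals.
SAUR19: gacttattcatTGTAAATAcatgagctttt
SAUR20: gacttattcatTGTAAATAcatgagctttt
SAUR21: gacttgatcctTGTAAATAgatgatttttt
SAUR22: acttaattcatTGTAAATAgcttttttctc
SAUR23: agttgtttcctTGTAAATAgaggaattttt
SAUR24: gacttattcatTGTAAATAgatgagccctt
Their places on TAIR10.1 are SAUR19 at chr5:5962968-5962997 (minus strand), SAUR20 at chr5:5966243-5966272 (minus strand), SAUR21 at chr5:5968834-5968863 (plus strand), SAUR22 at chr5:5974623-5974652 (minus strand), SAUR23 at chr5:5976341-5976370 (plus strand) and SAUR24 at chr5:5984148-5984177 (plus strand). The motif began 44 to 52 bases after the stop codon, and SAUR19 and SAUR20 had the same 30 bases.

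In SAUR26-29, TGTANATA ran straight into ATAGAT in 3 genes, which are shown with TGTANATA in capitals and GAT following it.
SAUR29: acttttttaacTGTAGATAgataacaattt
SAUR28: aataattttctTGTAAATAgattgacaaat
SAUR27: actttaattacTGTAGATAgatgagaattt
Their places are SAUR29 at chr3:976885-976914 (minus strand), SAUR28 at chr3:980069-980098 (minus strand) and SAUR27 at chr3:981601-981630 (plus strand). The fourth gene of that cluster, SAUR26, had ATAGAT but not TGTANATA. It is shown with SAUR15, the gene first isolated as SAUR-AC1, and with SAUR62 of the SAUR61-68 cluster, ATAGAT being in capitals.
SAUR26: tattccatgtgaATAGATaacatttttttc
SAUR15: aatatacaatacATAGATcgtaattgatca
SAUR62: tttgtagagtttATAGATtagacagcttaa
These 3 lie in 3′ UTRs, at places on TAIR10.1 that are SAUR26 at chr3:983547-983576 (plus strand), SAUR15 at chr4:18126613-18126642 (plus strand) and SAUR62 at chr1:10302751-10302780 (minus strand).

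TGTANATA was present on the sense strand of the 3′ UTR in 17 of 38 members (44.7%), against 9.49% of the 23283 genes with a 3′ UTR of at least 50 bases. The joined form, TGTANATA followed by GAT, was present in 5 members, namely SAUR21, SAUR24, SAUR27, SAUR28 and SAUR29 (13.2%), against 0.258% of those genes. ATAGAT was present in 9 members (23.7%), against 12.6% of those genes, and 5 of those 9 hold it within the joined form. Median 3′ UTR length was 279.5 bases in the members and 272 bases in all those genes. TGTANATA was searched after the windows around ATAGAT had been read, and clustered genes share descent, so the shares are descriptions.

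The 250 bases upstream of the annotated start were searched on both strands for auxin, brassinosteroid and light motifs. TGTCTC, an auxin response element, was found in 6 of 38 members (15.8%), against 10.9% of 27443 genes. CATATG, known from the auxin-responsive part of a soybean SAUR promoter, was found in 9 members (23.7%), against 7.12% of those genes, and 4 of these 9 were in SAUR19-24. TGTCGG was found in 2 members (5.26%), against 4.16%. The G-box CACGTG, a light motif, was found in none of the 38 windows, against 6.49% of all genes. The brassinosteroid motif CGTGTG was also found in none, against 5.37%, and neither was CGTGCG, against 1.57%. Of the 4 windows with more than 1 match, 3 are shown, the other being that of SAUR22. CATATG is in capitals in SAUR24 (chr5:5983433-5983682, plus strand), CATATG and GAGACA, the reverse complement of TGTCTC, are in capitals in SAUR20 (chr5:5966786-5967035, minus strand), and TGTCTC is in capitals in SAUR66 (chr1:10320761-10321010, plus strand).
SAUR24: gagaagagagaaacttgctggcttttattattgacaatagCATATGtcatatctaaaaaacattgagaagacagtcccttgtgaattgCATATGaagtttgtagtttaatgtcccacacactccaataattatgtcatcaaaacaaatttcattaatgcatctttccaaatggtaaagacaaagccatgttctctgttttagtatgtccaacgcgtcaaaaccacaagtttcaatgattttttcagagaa
SAUR20: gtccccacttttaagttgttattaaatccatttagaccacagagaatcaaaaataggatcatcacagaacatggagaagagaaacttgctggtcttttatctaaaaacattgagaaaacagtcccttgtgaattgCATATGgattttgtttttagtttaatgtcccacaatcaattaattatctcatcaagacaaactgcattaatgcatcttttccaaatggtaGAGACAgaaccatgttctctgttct
SAUR66: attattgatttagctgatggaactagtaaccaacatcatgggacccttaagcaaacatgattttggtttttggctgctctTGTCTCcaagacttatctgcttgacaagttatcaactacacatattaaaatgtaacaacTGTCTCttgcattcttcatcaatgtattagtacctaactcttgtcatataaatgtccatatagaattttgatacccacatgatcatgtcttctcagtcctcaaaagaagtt

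Total counts were 24021278 to 34166478 per library, and 18993 to 20876 features had at least 10 counts. The labels do not say whether the 3 libraries of a group came from separate plantings, so p-values measure the spread between these libraries. Levels are in CPM, read counts scaled to a common library size, with library sizes set by the trimmed mean of M-values (TMM) over the 24 libraries. The time labels and the RNA decline were in conflict in some libraries. An index of 34 short-lived non-SAUR genes, in log2 units relative to 0 min, stood at -2.51, -2.01 and -2.59 in stimulus replicates 2, 3 and 4 at 240 min, and at -0.21, -0.63 and -3.09 in the mock replicates at 240 min. In mock replicate 2 it was above -0.22 at every time, in mock replicate 3 it was -2.28 at 60 min, and in stimulus replicate 3 it was 0.21 at 15 min. The index genes were chosen on stimulus replicate 2. A clock score was the mean log2 level of evening genes minus that of morning genes, each gene taken relative to its median. It was high, above 1.5, in 7 libraries: stimulus replicate 3 at 15, 60 and 240 min, stimulus replicate 4 at 240 min, mock replicate 3 at 0 and 15 min, and mock replicate 4 at 240 min. The part of these differences in the results below was not tested unless values without those libraries are given.

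At 0 min the stimulus raised 25 of the 36 members with enough counts to test and lowered 3 (edgeR quasi-likelihood F test, Benjamini-Hochberg adjusted p under 0.05 over 20323 features). Over all features tested, 26.6% were higher and 29.7% lower at the same threshold. Members with few mock counts entered the test through the stimulus libraries and could only be called higher. SAUR61, SAUR68, SAUR28, SAUR9 and SAUR25, all among the 25, had at most 5 counts in any mock library at 0 min. The median log2 change, stimulus over mock, was 2.62 over the 36 members and -0.02 over all features. In 25 of 36 members every stimulus library lay above every mock library and in 4 every stimulus library lay below, against 32.5% and 32.3% of all features tested. SAUR3 and SAUR5 were too low to test, with at most 10 and 2 counts in any library. With only whole leaves measured, fewer cells of a type and less RNA per cell cannot be told apart.

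**Figure D1:**
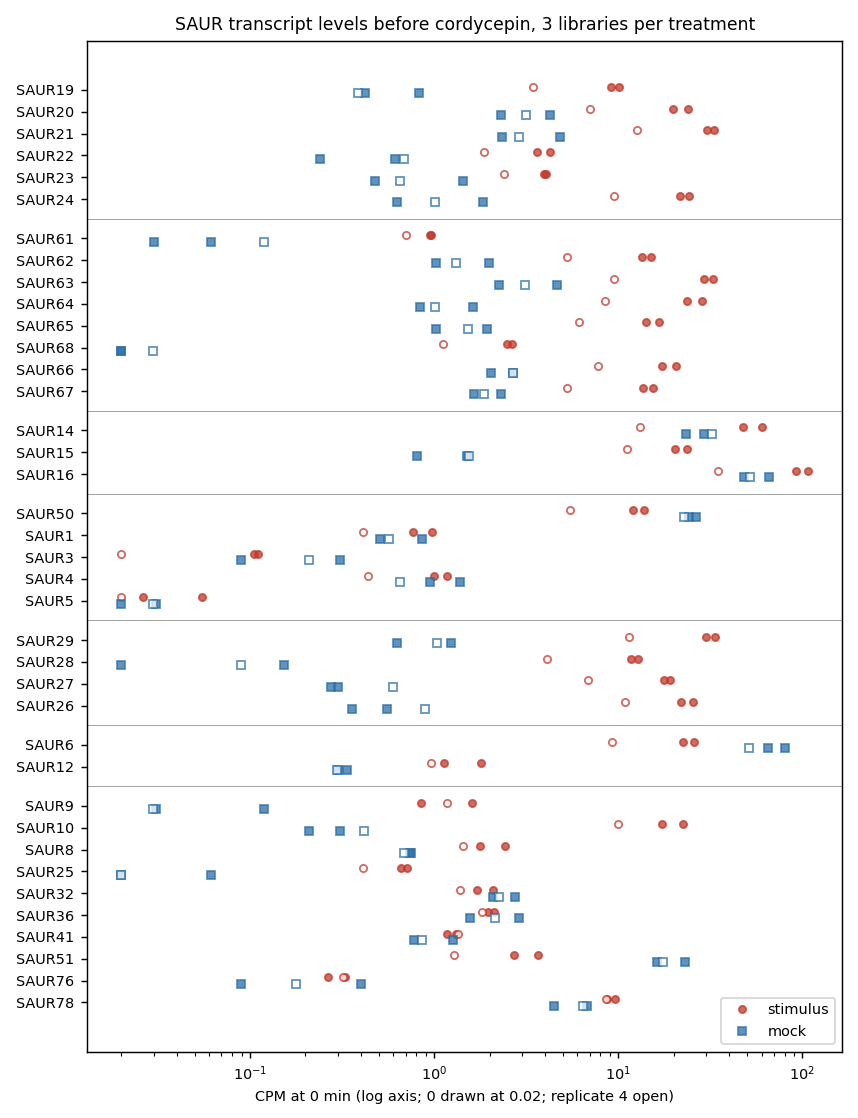
Level of each of the 38 SAUR transcripts at 0 min in CPM (log axis), with 3 stimulus libraries (circles) and 3 mock libraries (squares) per gene and grey lines between positional groups. In SAUR19-24, SAUR61-68 and SAUR26-29 the circles lie to the right of the squares, and the open circles of stimulus replicate 4 lie left of the filled ones in these clusters.

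All 6 genes of SAUR19-24, whose proteins promote cell expansion, rose, with a median log2 change of 2.76. SAUR21 (AT5G18030, chr5:5968352-5969190), the most abundant of them over the 24 libraries, had 33.0, 30.3 and 12.6 CPM in stimulus replicates 2, 3 and 4, against 4.82, 2.34 and 2.89 CPM in the same-numbered mock replicates. The groups did not overlap, and the log2 change was 2.89 ± 0.45 (SE, n = 3 each, edgeR adjusted p = 0.00196). SAUR19 (AT5G18010, chr5:5962773-5963405), with the smallest adjusted p of the cluster, had 10.1, 9.15 and 3.42 CPM in stimulus, against 0.829, 0.419 and 0.387 CPM in mock. The groups were apart, with a log2 change of 3.76 ± 0.51 (edgeR adjusted p = 6.87e-04). SAUR24 rose by 3.96, SAUR22 by 2.63, SAUR20 by 2.36 and SAUR23 by 1.99 on the log2 scale. Summed over the cluster, which does not depend on how reads of shared stretches are split among its genes, stimulus libraries had 99.7, 88.5 and 36.7 CPM and mock libraries 13.8, 6.41 and 8.79 CPM. Of the 50-base words of SAUR19, 18.5% also occur in another gene, with SAUR24 sharing the most of them, 41 of 108, and the share was 0.573 to 7.11% for the other 5.

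All 8 genes of SAUR61-68 rose too, with a median of 2.97, though SAUR61 and SAUR68 had too few mock counts to be called lower. SAUR63 (AT1G29440, chr1:10304507-10305108), which promotes elongation of hypocotyls and stamen filaments, was the most abundant and had 32.8, 29.2 and 9.51 CPM in stimulus, against 4.64, 2.25 and 3.10 CPM in mock. Its log2 change was 2.81 ± 0.53 (edgeR adjusted p = 0.00506) and the groups were apart, though 27.1% of its 50-base words occur in SAUR67 as well. SAUR68 (AT1G29490, chr1:10319732-10320402) had 2.64, 2.50 and 1.11 CPM in stimulus, and 0, 0 and 0.0298 CPM in mock. Summed counts were 229 in stimulus and 1 in mock, a ratio of 210 per unit of library size with an exact 95% interval of 37.3 to 8338, which covers counting error only (edgeR adjusted p = 3.39e-05). SAUR64 rose by 4.10, SAUR61 by 3.54, SAUR65 by 3.01, SAUR62 by 2.94, SAUR66 by 2.61 and SAUR67 by 2.53 on the log2 scale. SAUR61 was the least abundant of these 6 at 0.9498, 0.962 and 0.702 CPM in stimulus, against 0.0614, 0.0299 and 0.119 CPM in mock. SAUR62 shares 23.2% of its 50-base words with other genes, chiefly SAUR75, and SAUR67 shares 19.5% of its own with SAUR63.

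SAUR26-29 showed the highest median change of the 7 groups, 5.07 over 4 genes, all of which rose. SAUR28 among them had too few mock counts to be called lower. SAUR29 (AT3G03820, chr3:976715-977474) had 33.7, 29.9 and 11.4 CPM in stimulus, against 1.23, 0.629 and 1.04 CPM in mock. SAUR26 (AT3G03850, chr3:983057-983768), known for differences in expression between natural accessions, had 25.4, 22.0 and 10.9 CPM in stimulus, against 0.553, 0.359 and 0.893 CPM in mock. Neither pair overlapped, and the log2 changes were 4.66 ± 0.52 for SAUR29 (edgeR adjusted p = 4.42e-04) and 4.98 ± 0.44 for SAUR26 (adjusted p = 9.14e-05). SAUR28 stood at 12.7, 11.8 and 4.10 CPM in stimulus, against 0.154, 0 and 0.0893 CPM in mock, and SAUR27 rose by 5.17 ± 0.53. No 50-base word of these 4 genes occurs in another gene.

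In SAUR14-16 the neighbours differed. SAUR15 (AT4G38850, chr4:18126057-18126829) had 23.6, 20.3 and 11.1 CPM in stimulus, against 1.505, 0.808 and 1.55 CPM in mock, without overlap, and rose by 3.80 ± 0.36 (edgeR adjusted p = 1.09e-04). SAUR16 (AT4G38860, chr4:18130237-18131284), the member with the highest level at 0 min per kilobase of transcript, had 107, 92.0 and 34.8 CPM in stimulus, against 66.3, 48.1 and 51.6 CPM in mock. Here stimulus replicate 4 lay below all 3 mock libraries, and the log2 change of 0.47 ± 0.40 was not called (adjusted p = 0.365). SAUR14 behaved likewise, with 60.5, 47.8 and 13.2 CPM in stimulus and 29.1, 23.4 and 32.4 CPM in mock (log2 change 0.49 ± 0.52, edgeR adjusted p = 0.463). Without stimulus replicate 4, SAUR14 rose by 0.92 (adjusted p = 0.00171) and SAUR16 by 0.83 (adjusted p = 0.00204). Their adjusted p over all alternatives ran from 0.00171 to 1.00 for SAUR14 and from 0.00204 to 0.997 for SAUR16. SAUR16 is known to be induced by light in cotyledons.

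Stimulus replicate 4 held less SAUR RNA than its group at 0 min. Over the 38 members the sum was 603, 521 and 218 CPM in the 3 stimulus libraries, against 247, 235 and 215 CPM in mock, so the lowest stimulus library stood within the mock range. Its index of short-lived genes was -0.32, against 0.20 and 0.16 in the other two stimulus libraries, before any cordycepin time had passed. Without it, 27 members were higher and 3 lower, against 24.8% and 26.3% of all features.

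The members that fell under stimulus were SAUR51, SAUR6 and SAUR50. SAUR6 (AT2G21210, chr2:9084628-9086029) had 25.8, 22.5 and 9.28 CPM in stimulus, against 64.8, 80.9 and 51.5 CPM in mock, with a log2 change of -1.80 ± 0.38 (edgeR adjusted p = 0.00765). Of the 50-base words of SAUR6, 9.39% also occur in SAUR7. SAUR50 (AT4G34760, chr4:16582183-16583075), known to take part in the light-driven opening of cotyledons, had 13.7, 12.1 and 5.44 CPM in stimulus, against 24.2, 26.3 and 22.8 CPM in mock. Neither gene's groups overlapped, and SAUR50 fell by 1.25 ± 0.30 on the log2 scale (adjusted p = 0.0108). SAUR51 had 3.67, 2.72 and 1.29 CPM in stimulus and 16.3, 23.1 and 17.4 CPM in mock, a 7.48-fold lower level (adjusted p = 2.55e-04). The call of SAUR50 was lost without the filter on low counts, without replicate 3, against a 1.5-fold minimum and in a fit of all 24 libraries, where its log2 change was -1.26, -1.30, -1.25 and -1.23 in that order, and its adjusted p ran from 7.56e-06 to 0.292 over the alternatives. The fit of all 24 libraries, chosen after seeing the data, also lost the calls of SAUR20, SAUR8, SAUR51 and SAUR78, with log2 changes of 2.39, 1.37, -2.88 and 0.60 there.

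SAUR12 (AT2G21220, chr2:9089226-9090052), the neighbour of SAUR6, moved the other way. It had 1.79, 1.13 and 0.966 CPM in stimulus, against 0.338, 0.299 and 0.298 CPM in mock, and rose by 2.02 ± 0.33 on the log2 scale (edgeR adjusted p = 7.05e-04). The groups did not overlap.

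Of the 10 dispersed members, SAUR10, SAUR25, SAUR9, SAUR8 and SAUR78 rose and SAUR51 fell. SAUR10 (AT2G18010, chr2:7833782-7834653) had 22.6, 17.3 and 9.92 CPM in stimulus, against 0.307, 0.210 and 0.417 CPM in mock, with no overlap. This was the smallest adjusted p among the members (log2 change 5.69 ± 0.41, edgeR adjusted p = 2.44e-05), and the groups differed 51.7-fold. SAUR78 (AT1G72430, chr1:27264602-27265806), a member whose protein is known to interact with ethylene receptors, had 8.71, 9.57 and 8.55 CPM in stimulus, against 4.48, 6.80 and 6.46 CPM in mock. Its groups were apart but close, with a log2 change of 0.57 ± 0.16 (adjusted p = 0.0120), and it was not called against a 1.5-fold minimum (adjusted p = 0.692, range over alternatives 0.00307 to 0.692). SAUR9, whose protein inhibits PP2C-D phosphatases, rose by 4.23 ± 0.51, and SAUR8 by 1.34 ± 0.26. SAUR25 had 65 counts in the stimulus libraries together and 2 in the mock libraries, a ratio of 29.8 with an exact 95% interval of 7.93 to 252.

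The other 4 dispersed members and SAUR1 and SAUR4 were not called. Log2 changes were 0.38 for SAUR41, 0.43 for SAUR76, -0.19 for SAUR36, -0.48 for SAUR32, 0.14 for SAUR1 and -0.21 for SAUR4. SAUR36 is known for its part in leaf senescence and SAUR32 for the apical hook. SAUR32 had 2.08, 1.70 and 1.38 CPM in stimulus, against 2.73, 2.10 and 2.26 CPM in mock, so its groups were apart although its adjusted p was 0.0784. The other 5 of these members overlapped between groups.

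**Figure D2:**
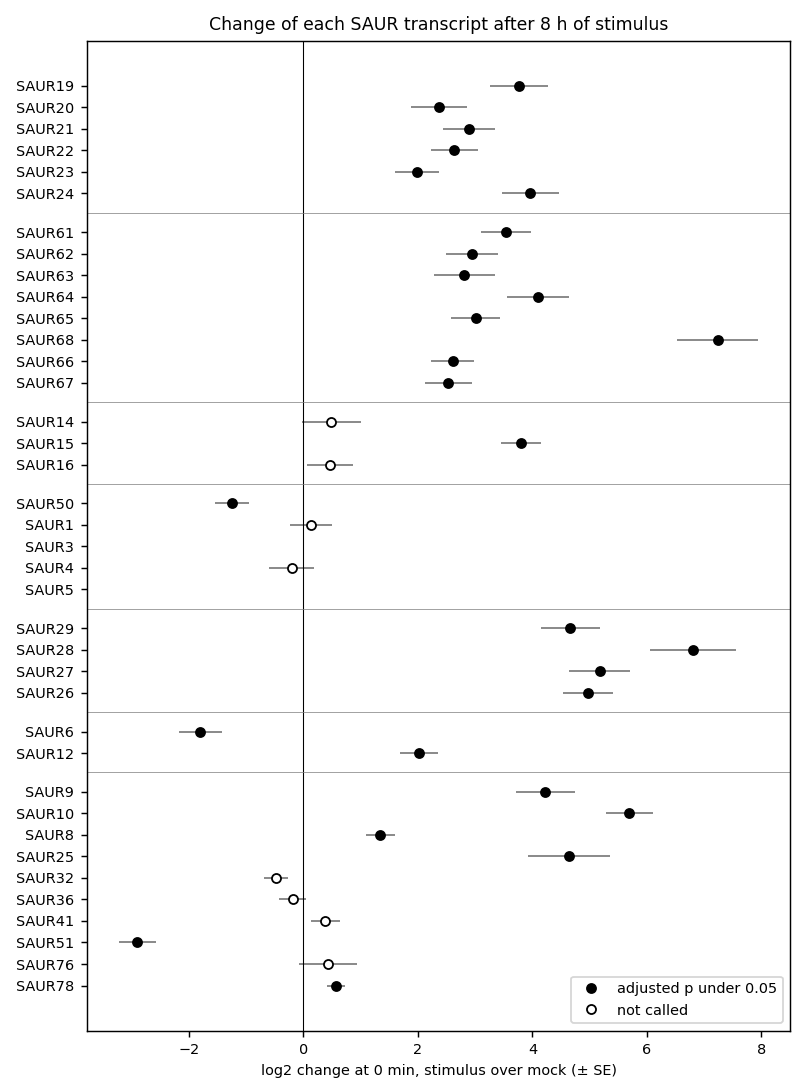
Log2 change of each tested SAUR transcript at 0 min, stimulus over mock, with its SE (3 libraries per group), filled where the edgeR adjusted p was under 0.05. The clusters SAUR19-24, SAUR61-68 and SAUR26-29 lie wholly to the right of 0, while SAUR50, SAUR6 and SAUR51 lie to the left. Values of SAUR68, SAUR28 and SAUR25, with few or no mock counts, depend on the fit's prior count.

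Among SAUR genes outside the 38 both directions were seen. Of the 42 other SAUR features 17 could be tested, and 3 rose while 5 fell, with a median log2 change of -0.33. SAUR75, which shares sequence with SAUR62, rose by 2.46 (edgeR adjusted p = 2.89e-04), and SAUR59, with the smallest adjusted p, fell by 2.72 ± 0.20 on the log2 scale (adjusted p = 5.85e-06). No test compared these genes with the members.

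Partners of the pathway were taken as lists. Of 9 PP2C-D phosphatases, the targets of SAUR proteins, 3 rose and 3 fell, and the smallest adjusted p was that of AT3G17090 with a log2 change of 0.67 ± 0.07 (edgeR adjusted p = 5.77e-05). Of 11 plasma membrane proton pumps 10 were tested, with 2 higher and 4 lower. HA9 (AHA9) rose by 3.29 ± 0.21 (adjusted p = 3.1e-06), while HA11 fell by 2.18 ± 0.17 on the log2 scale. Of 8 upstream transcription factors, the auxin response factor genes ARF19 and NPH4 (ARF7) and the brassinosteroid factor genes BZR1 and BES1 rose, ARF6 and ARF8 fell, and PIF4 and PIL6 (PIF5) were not called. ARF8 had the smallest adjusted p of these 8, with a log2 change of -1.40 ± 0.08 (adjusted p = 1.93e-06). The medians of the 3 lists, -0.07, -0.07 and 0.08, lay near that of all features.

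Cell type markers moved as well, and their part in the SAUR changes was not tested. Lower in stimulus were 2 of 3 mesophyll markers, 3 of 3 guard cell markers and 1 of 2 epidermis markers, and SUC2, the marker of phloem companion cells, rose by 1.06 on the log2 scale (edgeR adjusted p = 3.81e-04). Summed mesophyll markers stood at 6965 to 8271 CPM in stimulus and 7748 to 15557 CPM in mock at 0 min, and guard cell markers at 18.2 to 22.7 CPM in stimulus and 31.4 to 41.4 CPM in mock. Epidermis markers stood at 50.3 to 52.2 CPM in stimulus and 68.8 to 78.6 CPM in mock, and SUC2 at 64.3 to 77.1 CPM in stimulus and 25.2 to 38.04 CPM in mock. Root hair markers, which leaves should lack, summed to at most 0.120 CPM at 0 min and at most 0.247 CPM in any library.

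After cordycepin the median SAUR transcript stood further below its 0 min level than the median nuclear feature at every time in each series, a series being the 4 libraries of a treatment and number. As a share of their own 0 min level, the 38 members summed to 36.8, 23.0 and 14.4% at 15, 60 and 240 min in stimulus replicate 2. The values were 84.6, 31.9 and 22.7% in stimulus replicate 3 and 39.4, 39.0 and 30.1% in stimulus replicate 4. In mock replicate 4 they were 21.6, 14.4 and 10.4%, in mock replicate 3 they were 35.9, 17.5 and 42.6%, and in mock replicate 2 they were 62.4, 81.3 and 78.9%. Mock replicate 2 and the 240 min library of mock replicate 3 were high, and the index of short-lived genes was high in these same libraries. The shares of stimulus replicate 4 are relative to a low start, 218 CPM at 0 min against 603 and 521 CPM in replicates 2 and 3. At 240 min its sum was the lowest of the stimulus series, 65.4 CPM against 86.9 and 119 CPM.

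Member by member the same series differed from the background. Among members with at least 20 counts at their own 0 min, 26 of 35 in stimulus replicate 2 were below 50% at 15 min, against 1.56% of nuclear features with as many counts. By 60 min it was 32 of 35, against 10.4%. The median member stood at 40.6% at 15 min and 23.8% at 60 min, where the median feature stood at 96.6% and 95.8%. Nearly all of these 35 members had thus lost more than most RNA within 60 labelled min in that series. In stimulus replicate 3 only 1 of 35 members, SAUR10 at 46.2%, was below 50% at 15 min, but 33 of 35 were at 240 min, against 10.7% of features. In mock replicate 4, 25 of 26 members were below 50% at 15 min, against 11.5% of features, and all 26 were at 240 min, against 25.3%. These 2 series reached their low levels at different labelled times. Even in mock replicate 2, where 0.873% of features were below 50% at 15 min, 11 of 26 members were. There SAUR23 stood lowest at 5.00%, from 47 counts to 2, and SAUR78 stood highest at 389%, from 146 counts to 484.

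The groups were followed to 240 min as sums. At 240 min SAUR19-24 kept 7.80, 20.4 and 16.3% of its 0 min level in stimulus replicates 2, 3 and 4, and 44.6, 72.8 and 16.2% in the mock replicates. SAUR26-29 kept 9.17, 25.2 and 27.0% in stimulus, and 84.9, 92.6 and 11.8% in mock. SAUR14-16 kept 11.5, 18.5 and 19.5% in stimulus, and 76.2, 48.4 and 3.69% in mock. These 3 clusters were below 28% in every stimulus series. SAUR61-68 kept 15.0, 20.7 and 33.1% in stimulus, and 60.7, 73.0 and 8.51% in mock. The SAUR1-5 and SAUR50 group kept 34.4, 37.2 and 74.9% in stimulus, and 74.0, 40.7 and 7.41% in mock. In stimulus this group went from 15.9, 14.2 and 6.29 CPM at 0 min to 5.45, 5.29 and 4.71 CPM at 240 min. SAUR50 made up 13.7, 12.1 and 5.44 CPM of the 0 min sums, so the shares are mostly those of SAUR50. By themselves, SAUR4 kept 21.1, 31.6 and 38.7% in stimulus and SAUR1 kept 26.0, 26.4 and 82.9%, from 14 to 43 counts at 0 min. SAUR6 and SAUR12 together kept 19.9, 41.1 and 55.9% in stimulus, and 74.4, 29.7 and 18.0% in mock. Most of that sum was SAUR6, and SAUR12 by itself kept 30.6, 45.1 and 48.3% in stimulus. The dispersed members kept 40.0, 30.0 and 50.1% in stimulus, and 129.8, 46.9 and 17.9% in mock. They were unlike each other, with SAUR10 at 17.2, 10.4 and 21.8% and SAUR78 at 74.3, 58.8 and 70.0% in stimulus. No test compared the groups with each other.

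**Figure D3:**
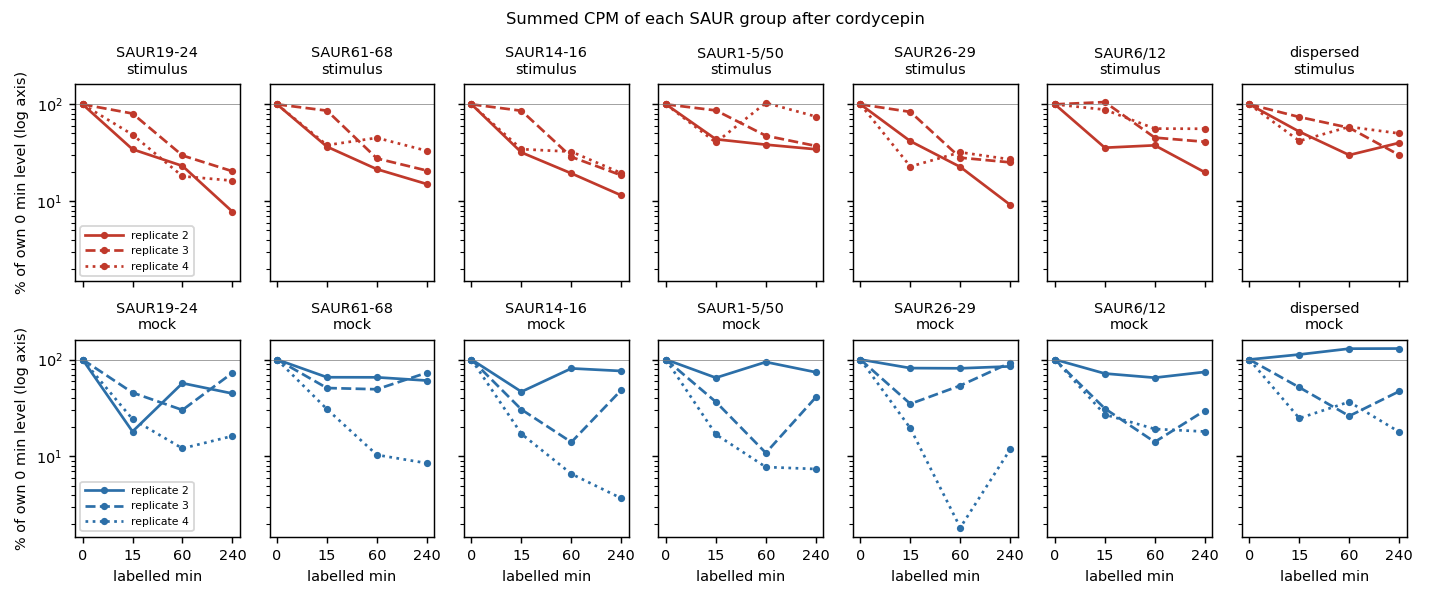
Summed CPM of each positional group at 0, 15, 60 and 240 labelled min after cordycepin, as a percentage of the series' own 0 min level (log axis), stimulus above and mock below, with 1 line per replicate number. Times are evenly spaced on the axis. All stimulus lines end below their 0 min level, while the mock lines spread, with replicate 4 lowest at 240 min in each of the 7 groups.

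Fitted over the 12 stimulus libraries, 18 of 36 members fell and none rose, against 11.8% of 21530 features falling and 8.73% rising (slope of log count on hours, edgeR quasi-likelihood F test, adjusted p under 0.05). The slopes are relative to the other RNA of the library. The median slope was -0.46 log2 units per hour over the 36 members and -0.01 over all features, and 34 of 36 members were below 0. By group, 5 of 6 in SAUR19-24 fell, 6 of 8 in SAUR61-68, 2 of 3 in SAUR14-16, 3 of 4 in SAUR26-29 and 2 of 10 dispersed members, SAUR10 and SAUR41. None of the 3 tested genes of the SAUR1-5 and SAUR50 group was called, and neither was SAUR6 or SAUR12.

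SAUR15 had the steepest slope of the members. Its stimulus levels in replicates 2, 3 and 4 were 23.6, 20.3 and 11.1 CPM at 0 min, 11.6, 13.8 and 2.25 CPM at 15 min, 4.58, 7.87 and 2.09 CPM at 60 min and 1.69, 3.22 and 1.23 CPM at 240 min. Every series was lower at each later time than at the one before. The slope was -0.70 ± 0.17 log2 units per hour (n = 12, edgeR adjusted p = 0.0316), a half-life of 85.6 min if the rate were constant over 240 min. In mock, SAUR15 had 1.505, 0.808 and 1.55 CPM at 0 min, 0.577, 0.481 and 0.426 CPM at 15 min, 2.12, 0.297 and 0.0482 CPM at 60 min and 0.920, 1.19 and 0.0619 CPM at 240 min. Replicate 2 at 60 min lay above its own 0 min level there, and the mock slope of -0.08 ± 0.23 was not called (adjusted p = 0.969).

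In SAUR19-24 the slopes of the 6 genes lay between -0.65 and -0.57, and SAUR20 was the one not called (edgeR adjusted p = 0.0531). SAUR21 had 13.4, 22.3 and 6.30 CPM at 15 min, 6.605, 9.28 and 2.26 CPM at 60 min and 2.62, 5.39 and 2.00 CPM at 240 min in stimulus. In mock it had 0.865, 0.961 and 0.724 CPM at 15 min, 2.80, 0.594 and 0.386 CPM at 60 min and 2.10, 1.86 and 0.495 CPM at 240 min. The stimulus slope was -0.65 ± 0.16 (adjusted p = 0.0324, half-life 92.8 min), and the mock slope -0.13 ± 0.18 was not called. Stimulus values lay above mock values at 15 min in all libraries, whereas at 60 min mock replicate 2 reached 2.80 CPM, above the 2.26 CPM of stimulus replicate 4.

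Half-lives of the 18 called members, from a single slope over 240 min, ran from 85.6 min for SAUR15 to 134.7 min for SAUR41. Over 0 to 60 min the slopes were steeper, -1.77 for SAUR15, -1.96 for SAUR21 and -2.04 for SAUR63, though not called. The half-lives therefore do not describe the early decline. SAUR62 at 96.1 min, SAUR64 at 100.6 min and SAUR63 at 107.6 min stood for the SAUR61-68 cluster, SAUR29 at 98.0 min for SAUR26-29 and SAUR16 at 94.9 min for SAUR14-16. SAUR61 was the exception in its cluster. It had 0.9498, 0.962 and 0.702 CPM at 0 min and 1.14, 1.39 and 1.06 CPM at 240 min in stimulus, and its slope of 0.09 ± 0.09 was not called (edgeR adjusted p = 0.436). SAUR9, SAUR36, SAUR78 and SAUR25 also had shallow slopes, 0.06, -0.07, -0.09 and -0.12, none of them called.

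**Figure D4:**
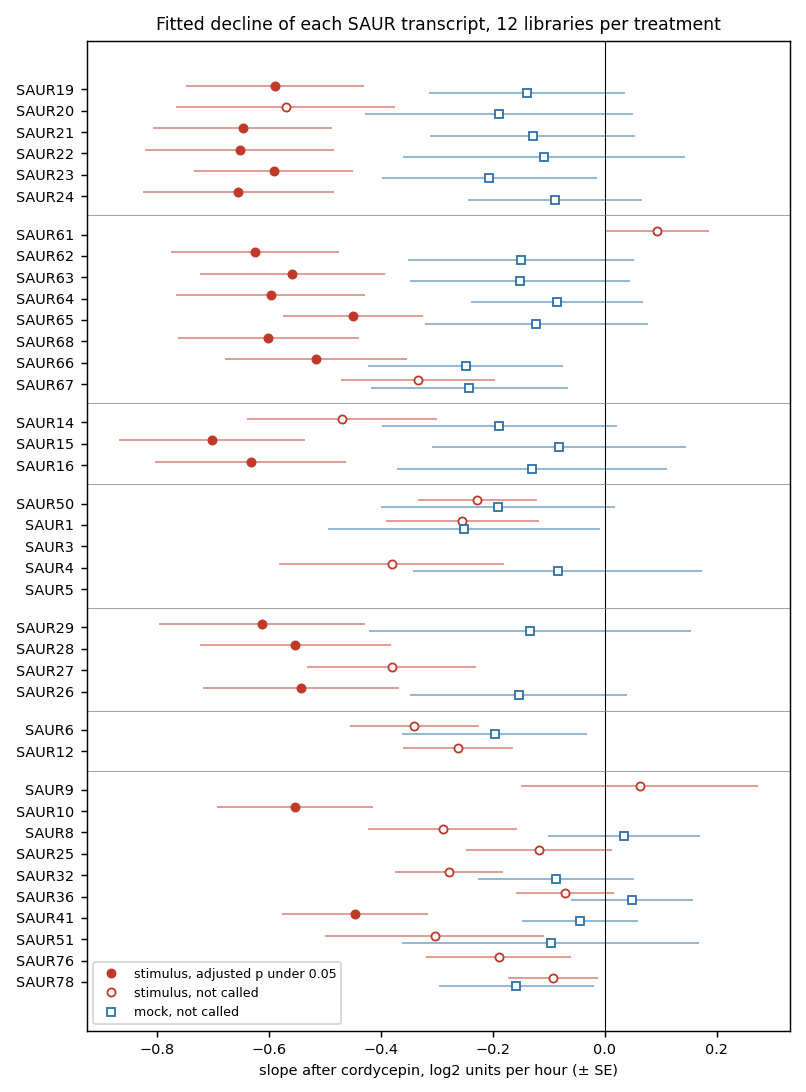
Fitted slope after cordycepin for each tested SAUR transcript, with its SE, in log2 units per hour, over 12 stimulus libraries (circles) and 12 mock libraries (squares); filled symbols have an edgeR adjusted p under 0.05. The 18 filled circles lie between -0.70 and -0.45, and no square is filled.

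The calls of the stimulus decline, but not its direction, depended on the 240 min libraries and on the replicates used. Over 0 to 60 min the slopes were steeper, with a median of -1.55 log2 units per hour over the 36 members and 0.00 over all features, 34 of 36 below 0 and 23 at an unadjusted p under 0.05, and the half-lives above are those of the fit over 240 min. With 0 to 60 min only, or with time as a factor at 60 against 0 min, 0 members were called, and 0 of all features. Without replicate 2 it was also 0, with 0 of all 21624 features called, while the median slope of the members was -0.43, with 34 of 36 below 0 and 15 at an unadjusted p under 0.05. Within libraries of high or low clock score 0 members were called, with 1 and 0 of all features called, and the median slopes of the members were -0.49 and -0.52. The stimulus libraries of high score lack the 0 min time. Without replicate 3 there were 8 members, against 8.79% of features falling, and the median was -0.48. With a decay factor per treatment and time, set after seeing the data so that the 90th percentile of change over features of at least 50 CPM stayed level, 31 members fell, against 55.1% of features, and with a factor for each library 28 fell, against 37.7%.

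In mock no feature passed the threshold, neither among the 27 members with enough counts nor among all 21195 features, and DESeq2 called 0 members. Slopes of the members ran from -0.25 to 0.05, the median was -0.13, and 0 members had an unadjusted p under 0.05, against 0.392% of features that fell at that p. Without the 240 min libraries and mock replicate 2, an alternative added after seeing the data, the median mock slope was -1.93 over the members and -0.02 over all features. All 27 slopes were then below 0, with 13 at an unadjusted p under 0.05 and 0 called. Within the 3 mock libraries of high clock score 10 members fell, against 23.8% of features falling and 23.1% rising, with a median slope of -0.68 in a fit with 1 residual degree of freedom. Without replicate 4 the median mock slope was -0.056, with 20 of 28 members below 0, and within libraries of low clock score it was -0.057.

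The difference in slope between stimulus and mock was not called for any of 36 members or 22307 features. The members' differences, stimulus minus mock, ran from -0.91 to 0.16 log2 units per hour, with a median of -0.35 against -0.01 over all features, and 32 of 36 were below 0. At an unadjusted p under 0.05, 9 members declined faster in stimulus, against 5.01% of features, and DESeq2 called 0 members. SAUR28 had the smallest adjusted p, 0.660, with a difference of -0.84 ± 0.29 (edgeR), but only 5, 0 and 3 counts in mock replicates 2, 3 and 4 at 0 min. The fit of mock libraries alone had enough counts for 27 members, so some mock slopes within these differences rest on few counts. Within libraries of high clock score, 4 in stimulus and 3 in mock, the median difference was above 0, at 0.15, with 21 of 36 members above 0 and 0 called. Without replicate 2 the median was -0.25. The mock libraries whose index hardly fell enter this difference.

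Fewer members, and fewer of all features, were called between stimulus and mock at the later times than at 0 min. The members' median log2 change was 3.19 at 15 min, 1.98 at 60 min and 1.16 at 240 min over the 31, 31 and 30 members tested, after 2.62 over 36 at 0 min. Members with few mock counts could again only be called higher at these times. At 15 min 16 of 31 tested members were higher and 0 lower, against 7.12% of features higher and 8.81% lower. These were all 6 genes of SAUR19-24, all 4 of SAUR26-29, SAUR61, SAUR64, SAUR65, SAUR67, SAUR15 and SAUR10. At 60 min 9 of 31 were higher and 0 lower, against 2.64% and 5.08% of features. At 240 min 4 of 30 were higher and 0 lower, against 3.89% and 7.39%. SAUR10 and SAUR26 were called at all 4 times, as were SAUR27 and SAUR28.

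SAUR10 had 8.79, 7.97 and 4.02 CPM at 15 min, 3.60, 4.05 and 2.98 CPM at 60 min and 3.89, 1.80 and 2.17 CPM at 240 min in stimulus. In mock it had 0.180, 0.0641 and 0.256 CPM at 15 min, 0.287, 0.198 and 0.434 CPM at 60 min and 0.147, 0.280 and 0.248 CPM at 240 min. The groups were apart at every time. Its log2 change was 5.41 ± 0.56 at 15 min, 3.501 ± 0.49 at 60 min and 3.51 ± 0.55 at 240 min (edgeR adjusted p = 0.00317, 0.00877 and 0.0114). SAUR26 changed by 4.63, 4.13 and 3.30 at these times. The count of members called higher at 15 min was 0 without replicate 2 or without replicate 3, where 0% and 0.129% of features were called higher and the members' median log2 changes were 3.77 and 2.27. At 60 min it was 1 without replicate 2, against 0.514% of features, and 0 without replicate 3, against 0%, with medians of 3.06 and 1.45. At 240 min it was 0 without either, against 0.0681% and 0% of features, with medians of 1.67 and 1.26. With the replicate number as a block, 19 members were higher at 15 min, SAUR62, SAUR63 and SAUR66 being added to the 16, against 12.3% of features higher and 14.4% lower. At 240 min the block gave 9 members higher, and SAUR6 and SAUR51 lower, against 7.28% and 10.3% of features.

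Genes of the pathway lists were read in the same stimulus fit, in which 11.8% of all features fell, and no test compared them with the members. None of 10 proton pump genes fell or rose, and of 9 PP2C-D phosphatase genes AT5G02760 fell, by 0.68 ± 0.20 log2 units per hour (edgeR adjusted p = 0.0369). Of 8 upstream factors PIF4, PIL6 and BES1 fell, with slopes of -0.71, -0.38 and -0.30. Of 18 tested SAUR features outside the 38, SAUR75 fell and 2 rose.

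The members with TGTANATA in the 3′ UTR had a median stimulus slope of -0.55 log2 units per hour (17 tested), and those without it -0.45 (19 tested). The ranges were -0.65 to -0.07 with the motif and -0.70 to 0.09 without it, so they overlapped over nearly their whole length. SAUR15, with the steepest slope, had ATAGAT but not TGTANATA, and SAUR36, with one of the shallowest, had TGTANATA.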

How the data were processed

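The authors deposited raw read counts per feature for 24 libraries, neither normalised nor pooled. Per the labels, libraries were stranded, depleted of ribosomal RNA and read as 50-cycle single reads. TopHat2, Bowtie2 and TAIR10 are named in the submitters' processing notes, and versions, the counting tool and the annotation are not given in the sources used here. Symbols or synonyms, coordinates and sequences came from RefSeq on TAIR10.1, where 37751 of 38194 features matched by locus tag. RefSeq's own symbol for AT1G29510, called SAUR67 here, is SAUR68.

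The members, lists and tests were chosen with earlier results of these data known. Counts were fitted with edgeR 4.0.16 (robust quasi-likelihood F tests, TMM library sizes, filterByExpr) in R 4.3.3 with limma 3.58.1, over all features, with Benjamini-Hochberg adjustment and calls under 0.05. Each SE was derived from the test, as the absolute log2 change or slope divided by the square root of its F statistic. DESeq2 1.42.0 was an alternative, and the treatment, slope and rate difference fits were tested on simulated data. Apart from the planted changes, simulated libraries differed only in depth, and every gene had the same dispersion. The simulation cannot show how the fits behave on replicates as unlike as these. Treatments were compared among 6 libraries at each time. Decline was a slope over 12 libraries and the rate difference a treatment by hours term over 24. No list of stable transcripts was at hand, so declines used TMM alone, the fallback of the plan. Such slopes are relative to the other RNA, and stable transcripts rise in share. Levels were scaled over all 24 libraries. All 38 members are named, with values per library for the most abundant member of each group and the member with the smallest adjusted p at 0 min. Other lists give counts and the member with the smallest adjusted p, and further named genes were chosen after their values were seen. All 24 replicate pairs differed by more than counting error, with chi-square values divided by their degrees of freedom of 6.52 to 222.

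Replicate numbers were checked as pairs by correlating the deviations of same-numbered stimulus and mock libraries from their group means. The coefficients for numbers 2, 3 and 4 were -0.02, 0.17 and -0.11 at 0 min, 0.35, 0.54 and 0.67 at 15 min, 0.13, -0.11 and 0.80 at 60 min, and -0.14, 0.60 and 0.61 at 240 min. All 3 were over 0.1 at 15 min only, so a fit with the number as a block is given there beside the unblocked fit of the plan. Between times within a treatment, 12 of 18 same-numbered pairs in stimulus and 11 of 18 in mock were over 0.1. The lowest were -0.13 and -0.24, so shares of a series' own 0 min level rest on a match that was not shown. The labels do not say what a number shares.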

Additional observations from a re-analysis of the deposited data

How the results depend on the processing

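At 0 min, the count of members called (28) was 23 to 30 under all 17 alternatives, and the split of 25 higher and 3 lower was the same with median-ratio size factors, total counts, DESeq2 and the replicate block. Total counts moved the median log2 change of all features to 0.23 and that of the members to 2.88. The replicate block, used as the pairing alternative at every result, gave 28 members at 0 min, 19 at 15 min, 12 at 60 min, 22 for the stimulus decline and 0 for the mock decline and the rate difference, so that only the 240 min count, 11 in place of 4, moved by over 1.5 times. DESeq2 called 13 members at 240 min. Leaving out one replicate gave 27 to 30 members at 0 min, 0 to 23 at 15 min, 0 to 4 at 60 min and 0 to 9 at 240 min.

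The stimulus decline (18) depended on the settings. It was 31 with a decay factor per treatment and time and 28 with one for each library, where 55.1% and 37.7% of all features were called falling. It was 0 with 0 to 60 min only, with time as a factor and within libraries of high or low clock score, and 0 to 21 when one replicate was left out. The mock decline was 10 within libraries of high clock score and 0 under its other alternatives, and the rate difference was 0 under all. Causes were not tested.

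Reversed in sign, none of them called, were some 0 min log2 changes near 0. SAUR1 (0.14 as reported) ran from -0.13 without stimulus replicate 2 to 0.42 without stimulus replicate 4. SAUR4 (-0.21) was 0.045 with total counts and ran from -0.46 without stimulus replicate 3 to 0.12 without stimulus replicate 4. SAUR36 (-0.19) was 0.055 with total counts and ran from -0.38 without mock replicate 2 to 0.051 without mock replicate 3. The mock slope of SAUR15 was 0.055 without replicate 4, 0.0082 within libraries of low clock score and -2.66 without the 240 min libraries and mock replicate 2. Of single members at 0 min, 584 values kept their direction and side of the threshold, 9 lost the call and 4 gained it. SAUR3 and SAUR5, at 10 counts or fewer, were below what these depths can compare.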
